A study of Rattus norvegicus with 36 samples.

Results

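The comparison described here is mature scar of the vocal fold (VF) mucosa at 60 days after injury against control mucosa of the same age, in 7 of the 36 arrays of the series. The arrays were picked by their labels, but the comparison was chosen with earlier results of these data known. They are 5 arrays of post-injury (PI) mucosa and 2 arrays of noninjured mucosa, both taken 60 days after the start of the experiment. All animals were male Fischer 344 rats, an inbred strain, that entered the experiment at 120 days of age and were killed at 180 days. Both VF mucosae of the PI rats had been stripped under an endoscope, and the control rats were experimentally naive. Each array holds RNA of microdissected mucosa pooled from both sides of 4 rats, so differences between animals within an array cannot be seen. The methods state 4 PI arrays at this time and, by implication, 3 control arrays, whereas the labels give 5 and 2, and the labels were followed. The hour of the day at harvest is not given in the sources used here. The values are the deposited log2 signals of Affymetrix rat genome arrays, in which a difference of 1 is a doubling. In what follows, PI means 60 days PI unless another time is named, a gene was called when its Benjamini-Hochberg adjusted p over 14217 genes was under 0.05 in limma, SE is the standard error of the log2 difference, and a value after ± is the SD between arrays.

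The VF mucosa is a layered tissue in which a stratified epithelium covers a lamina propria whose collagen, elastic fibers, hyaluronan and proteoglycans set how the fold vibrates. After deep injury the lamina propria is rebuilt as scar, usually with more and coarser collagen and fewer orderly elastic fibers, and remodeling continues long after the wound has closed. The thyroarytenoid muscle lies directly below, so a stripped and microdissected sample can carry muscle. Resident macrophages clear debris and produce chemokines and proteases, while the circadian clock, a loop in which the activators Bmal1, Clock and Npas2 drive their own repressors Per and Cry, runs in nearly every cell of the body.

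The labelled tissue was present by its markers in every 60-day array. The list of 17 stratified epithelium genes had mean log2 levels of 11.09 to 11.68 in the PI arrays and 11.36 to 11.41 in the control arrays, with Krt14, a keratin of basal cells, between 13.03 and 13.57 in all 7 arrays. The 30 genes of mature skeletal muscle had means of 11.31 to 11.61 in the PI arrays and 11.04 to 11.13 in the control arrays, so all samples, controls included, held muscle RNA. One array stood apart. PI array 4 differed from the mean of the other PI arrays with an SD over genes of 0.561 log2, against 0.209 to 0.263 for the others, and 1218 of its genes lay more than 1 log2 away, against 22 to 75. The median deviation in that array was -0.48 over 115 genes that encode ribosome or respiratory chain subunits. It was -0.22 over the ribosomal and -0.65 over the respiratory chain genes alone. The deviations of PI array 4 from its group mean correlated at 0.60 with those of 3-day PI array 5. With those of 14-day control array 3 the correlation was 0.45. The 2 control arrays also differed from each other in cell type markers: the medians of control array 1 minus control array 2 were 1.66 for the neutrophil list, 0.75 for lymphocytes, 0.52 for macrophages, -1.36 for cilia and -1.45 for cartilage. Values without single arrays are given for the called genes and beside the results that such an array moved most. Since whole tissue was measured, fewer cells of a type and less RNA per cell cannot be told apart.

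Few genes separated mature scar from control mucosa beyond the spread between arrays. Of 14217 genes, 7 (0.0492%) were called: Npas2, C13h1orf115 and Bnc2 rose, and Pgf, Cd5l, Per2 and Oprpn fell. Without PI array 4, 20 genes (0.141%) were called, 6 higher and 14 lower, among them all 7. None of these calls held without control array 1, and most did not hold without control array 2, with 1 control array left in each case. With all arrays, 369 genes (2.6%) were higher and 907 (6.38%) lower at an unadjusted p under 0.05, and without PI array 4 these numbers were 358 (2.52%) and 882 (6.2%). In 626 genes (4.4%) every PI array lay above both controls, and in 1127 (7.93%) every PI array lay below both. The shared spread came from all 23 mucosa arrays, and the count was 0 with the 7 arrays of 60 days alone and 1001 when the controls of all 3 ages were pooled. The pooled controls include younger rats, so age is part of that difference. Among the probe sets themselves, 12 of 31042 were called, 4 higher and 8 lower, of which 4 had no single gene symbol.

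**Figure D1:**
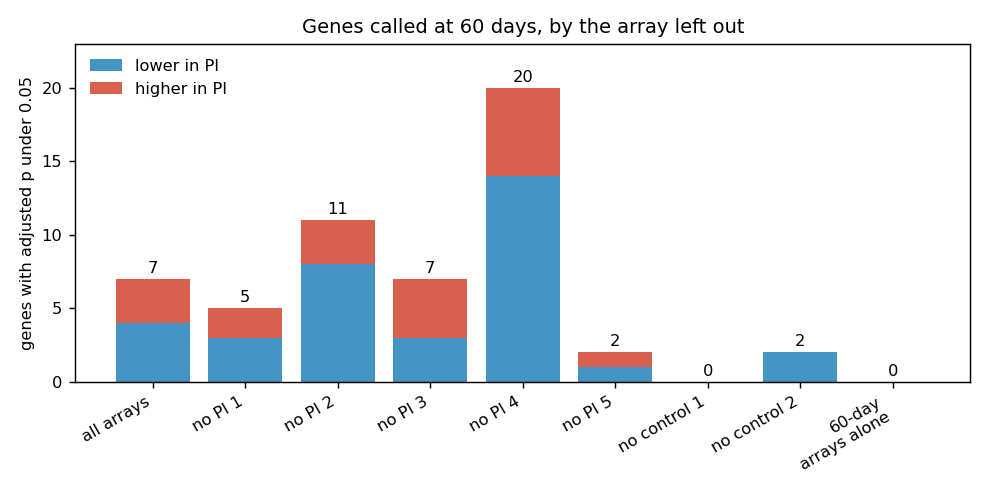
Number of genes with an adjusted p under 0.05 at 60 days (vertical axis), with all arrays, without each 60-day array in turn, and with the 60-day arrays alone; colors give the direction. The count was 7 with all arrays, 20 without PI array 4 and 0 without control array 1.

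The strongest call was Pgf, which encodes placental growth factor, a ligand of the VEGF receptor Flt1 that acts on vessels and monocytes. Its log2 levels were 6.88, 7.13, 6.92, 6.59 and 6.83 in PI arrays 1 to 5 and 8.03 and 7.79 in control arrays 1 and 2. The groups did not overlap, and Pgf fell in PI mucosa (log2 fold change -1.04, SE 0.14, adjusted p = 0.00461; the PI level was 0.486 of control). The difference without PI array 4 was -0.97, adjusted p = 0.00376. It was -0.92 without control array 1 and -1.16 without control array 2. Its other probe set gave -0.67. The remaining 12 measured genes of the vascular growth factor list were not called: Vegfa, the main angiogenic ligand of the family, had levels of 9.63, 9.48, 9.40, 9.95 and 9.63 in PI arrays 1 to 5 and 9.12 and 9.06 in control arrays 1 and 2, with all PI arrays above both controls (log2 fold change 0.53, SE 0.15, adjusted p = 0.225). Flt1 itself was at 6.49 ± 0.52 against 6.32 ± 0.03.

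Bnc2 and C13h1orf115 were the called genes with the smallest differences. Bnc2, basonuclin 2, is a zinc finger protein expressed in fibroblasts and other mesenchymal cells. It was at 8.85, 8.74, 8.52, 8.83 and 8.64 in PI arrays 1 to 5 and 7.95 and 8.12 in control arrays 1 and 2, and it rose in PI mucosa (log2 fold change 0.69, SE 0.12, adjusted p = 0.0367). C13h1orf115, an open reading frame named after its human counterpart, had levels of 10.55, 10.25, 10.36, 10.68 and 10.29 in PI arrays 1 to 5 and 9.72 and 9.55 in control arrays 1 and 2. It rose as well (log2 fold change 0.79, SE 0.12, adjusted p = 0.0143), and neither gene overlapped between the groups. Without PI array 4 the differences were 0.66, adjusted p = 0.0392, for Bnc2 and 0.73, adjusted p = 0.0103, for C13h1orf115. Without control array 1 they were 0.60 (adjusted p = 0.786) and 0.88 (adjusted p = 0.168), and without control array 2 they were 0.77 and 0.71.

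Oprpn, opiorphin prepropeptide, a secreted peptide precursor of gland cells, had the controls farthest apart among the called genes. Its levels were 3.69, 3.59, 3.45, 3.51 and 3.29 in PI arrays 1 to 5 and 6.55 and 4.16 in control arrays 1 and 2. The PI arrays were close together and below both controls, and the controls differed from each other by more than control array 2 differed from the PI arrays. The gene fell (log2 fold change -1.85, SE 0.33, adjusted p = 0.0367), but the difference was -0.66 (adjusted p = 0.634) without control array 1. The 6 control arrays of 3 and 14 days lay between 3.28 and 3.77, a range that holds all 5 PI arrays. Oprpn was itself called between the 60-day and earlier controls (1.80, adjusted p = 0.0395), and its 60-day difference against all 8 control arrays as 1 group was -0.50 (adjusted p = 0.459). Bpifa2, another secreted salivary protein, had levels of 5.82, 5.73, 6.18, 5.80 and 6.26 in PI arrays 1 to 5 and 6.75 and 8.02 in control arrays 1 and 2, again with the PI arrays close together and the controls apart, and was not called (log2 fold change -1.43, SE 0.43, adjusted p = 0.273). It differed by -2.06 without control array 1 and -0.80 without control array 2.

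**Figure D2:**
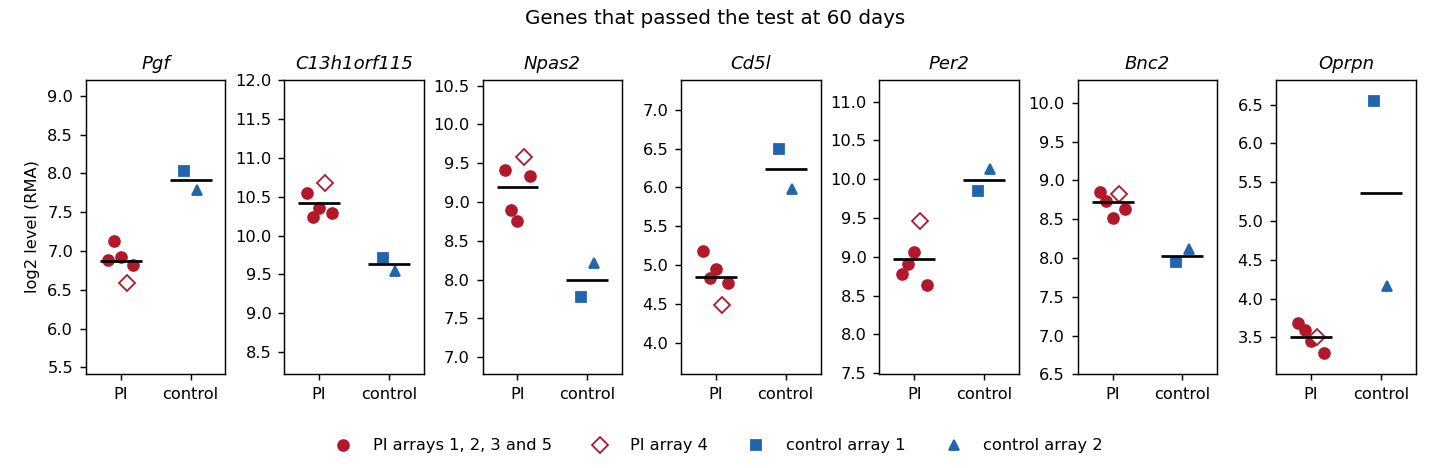
Log2 level (vertical axes, each spanning the same range) of the 7 called genes in each 60-day array; red, PI; blue, control; open diamond, PI array 4; lines, group means. In each gene the 5 PI arrays lay on 1 side of both controls, and the controls of Oprpn were 6.55 and 4.16.

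Genes of the circadian clock made up 2 of the 7 calls and differed in opposite directions by their role. The hour of harvest is not given for either group, and its part in the differences of clock genes was not tested. Npas2, a partner of Bmal1 in the activating complex, had levels of 9.41, 8.90, 8.76, 9.59 and 9.34 in PI arrays 1 to 5 and 7.77 and 8.21 in control arrays 1 and 2. All PI arrays were above both controls, and Npas2 rose 2.31-fold (log2 fold change 1.21, SE 0.19, adjusted p = 0.0167). Per2, a repressor of that complex, was at 8.77, 8.91, 9.06, 9.46 and 8.64 in PI arrays 1 to 5 and 9.85 and 10.13 in control arrays 1 and 2. It fell without overlap between the groups (log2 fold change -1.02, SE 0.17, adjusted p = 0.0218). Without PI array 4 the difference was 1.11, adjusted p = 0.0196, for Npas2 and -1.15, adjusted p = 0.00233, for Per2. Without control array 1 it was 0.99 for Npas2 and -1.16 for Per2, and without control array 2 it was 1.43 and -0.89. A second probe set of Per2 was at 8.21 in PI and 8.20 in control (log2 difference 0.02), so the fall rests on 1 of its 2 probe sets.

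Of the 7 measured activators and ROR or Nfil3 regulators, 1 was called, 5 were higher at an unadjusted p under 0.05 and none lower, with a median log2 difference of 0.39 against -0.03 over all genes. Bmal1, the obligate activator, was at 8.96, 8.68, 8.66, 9.15 and 8.95 in PI arrays 1 to 5 and 8.0 and 7.80 in control arrays 1 and 2. Every PI array was above both controls, and the gene was not called (log2 fold change 0.98, SE 0.20, adjusted p = 0.0722). It differed by 0.91 without PI array 4, by 1.08 without control array 1 and 0.88 without control array 2. Rora differed by 0.37 without overlap. Clock, Nfil3, Bmal2 and Rorb, at 0.39, 0.53, -0.06 and 0.06, overlapped between the groups. Of the 12 measured repressors and outputs, 1 was called, and 7 were lower and 1 higher at an unadjusted p under 0.05. In 8 of them every PI array lay below both controls, and the median was -0.72. Over all genes, 2.6% were higher and 6.38% lower at that p, and 7.93% had every PI array below both controls.

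Dbp, a transcription factor and direct output of the clock, had the most negative difference of all 14217 genes, with levels of 8.44, 9.27, 9.47, 7.72 and 8.41 in PI arrays 1 to 5 and 10.82 and 10.34 in control arrays 1 and 2. The PI arrays spread over more than 1 log2 but all lay below both controls (log2 fold change -1.92, SE 0.50, adjusted p = 0.17), and the difference was -1.68 without PI array 4, -1.68 without control array 1 and -2.16 without control array 2. Bhlhe41, a repressor of the activating complex, was at 9.95, 9.68, 9.98, 8.95 and 9.63 in PI arrays 1 to 5 and 10.71 and 10.78 in control arrays 1 and 2 (log2 fold change -1.11, SE 0.24, adjusted p = 0.0728). Tef, a factor related to Dbp, was at 6.15, 6.06, 5.65, 5.54 and 5.72 in PI arrays 1 to 5 and 6.77 and 6.64 in control arrays 1 and 2 (log2 fold change -0.88, SE 0.18, adjusted p = 0.0715), and its other 2 probe sets gave -0.03 and -0.53. The groups did not overlap in any of these 3 genes, and none of them was called. Per1, Nr1d1 and Cry2 differed by -0.88, -0.99 and -0.37, all with the PI arrays below the controls. Cry1, alone of the repressors, was on the other side (0.54), and its groups overlapped. The mean level of the 12 genes was 8.53 to 8.73 in the PI arrays and 9.28 to 9.29 in the control arrays, with PI array 4 inside the range of the other PI arrays at 8.61.

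**Figure D3:**
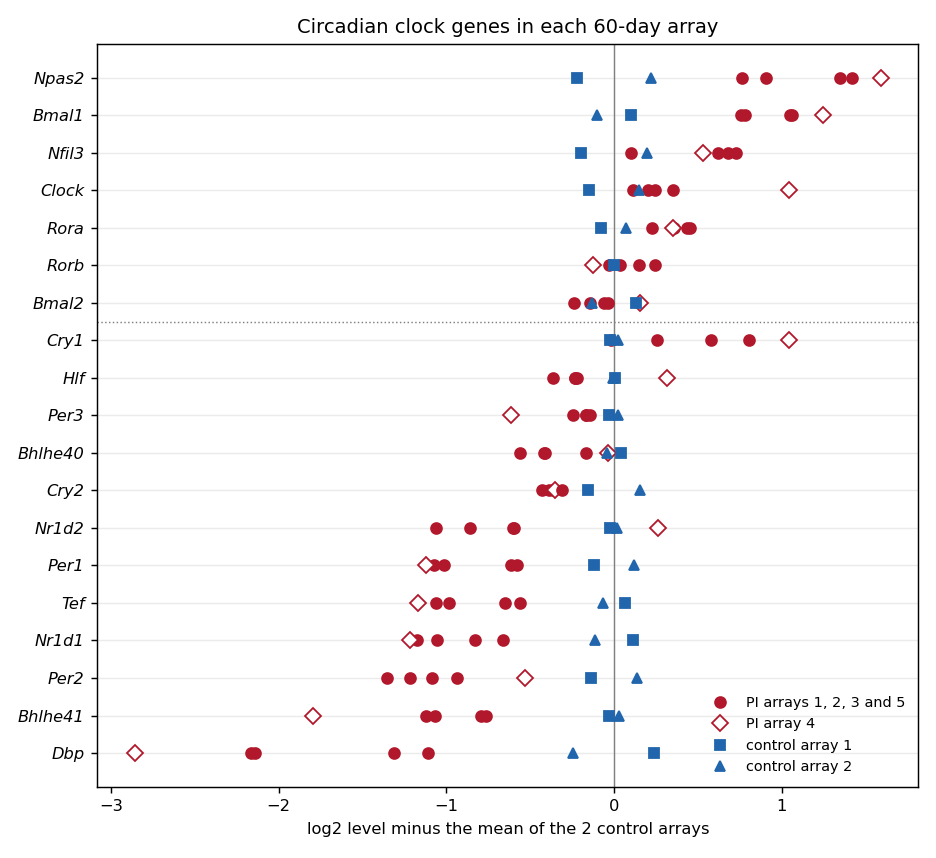
Log2 level of each measured clock gene in each 60-day array, minus the mean of the 2 control arrays (horizontal axis); activators and their regulators stand above the dotted line, repressors and outputs below it. All PI arrays of Npas2 and Bmal1 lie to the right of both controls and those of Per2, Dbp, Bhlhe41 and Tef to the left.

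The promoters of the clock genes are shown because the loop acts through short elements in them: E-boxes (CACGTG), bound by the activating complex, D-boxes (TTATGTAA or TTACGTAA), bound by Dbp and Tef, and the RORE core (TAGGTCA), bound by Rora and Nr1d1. Both strands of windows of 300 bases, from 250 before to 50 after each gene's start, were searched in RefSeq promoters of the GRCr8 assembly. Of the clock genes, 17 had a promoter there, and 4 held an E-box, 1 a D-box and 1 the RORE core. Over all 33469 promoters the shares were 6.42%, 1.01% and 2.63%. The start is the one in RefSeq's promoter table, and in the 4 genes shown it lies inside the annotated extent of the gene, by 76 bases in Per2, 106 in Bmal1, 60 in Bhlhe41 and 9647 in Tef. For Per2 the part of the window before the gene's annotated edge follows, and for the others the 30 bases around the element, all 5′ to 3′ with the element in capitals. They lie at chr9:99497070-99497243, minus strand, for Per2, chr1:176766298-176766327, plus strand, for Bmal1, chr4:180569386-180569415, minus strand, for Bhlhe41, and chr7:115206617-115206646, plus strand, for Tef.
Per2: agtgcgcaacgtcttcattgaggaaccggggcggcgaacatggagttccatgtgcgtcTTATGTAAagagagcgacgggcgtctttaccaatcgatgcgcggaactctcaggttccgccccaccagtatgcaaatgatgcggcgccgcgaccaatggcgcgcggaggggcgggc
Bmal1: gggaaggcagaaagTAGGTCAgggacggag
Bhlhe41: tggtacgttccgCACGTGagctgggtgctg
Tef: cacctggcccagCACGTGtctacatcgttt

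Counted from the start in that table, the D-box of Per2 began 192 bases before it and the RORE core of Bmal1 16 bases before it. The E-boxes of Bhlhe41 and Tef began 48 and 198 bases before theirs. Bmal1, whose promoter holds the element of Rora and Nr1d1, was higher in PI mucosa while Nr1d1 was lower. Per2, with the element of Dbp and Tef, was lower as were Dbp and Tef. Bhlhe41 and Tef, with the element of the activating complex, were lower while Npas2 and Bmal1 were higher. Whether these elements had a part in the differences was not tested.

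For both called clock genes the 60-day controls lay outside the range of the younger controls. In the 6 control arrays of 3 and 14 days Npas2 lay between 8.58 and 9.14, above both 60-day controls, and the PI arrays at 60 days overlapped that range. Per2 lay between 9.23 and 9.67 in the earlier controls, below both 60-day controls, and 4 of the 5 PI arrays lay below that range. The 60-day controls differed from the earlier ones by -0.82 for Npas2 (adjusted p = 0.117), by 0.53 for Per2 and by 0.87 for Dbp, and none of these differences was called. With the controls of the 3 ages pooled the 60-day difference was 0.59 for Npas2 and -0.63 for Per2.

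Among genes whose groups did not overlap, the 5 most positive differences were all in muscle genes, Myom2, Actn3, Myh2, Atp1b4 and Pvalb, as seen after their values were ranked, but none was called. Myh2, the fast type IIa myosin heavy chain, had levels of 12.83, 11.94, 12.06, 12.92 and 12.17 in PI arrays 1 to 5 and 10.43 and 11.29 in control arrays 1 and 2. All PI arrays were above both controls (log2 fold change 1.53, SE 0.34, adjusted p = 0.0836), with a difference of 1.39 without PI array 4, 1.10 without control array 1 and 1.96 without control array 2. Myom2, a protein of the sarcomere's M-band, was at 11.31, 11.15, 10.93, 11.91 and 11.30 in PI arrays 1 to 5 and 9.91 and 9.43 in control arrays 1 and 2 (log2 fold change 1.65, SE 0.35, adjusted p = 0.0722). Of the 30 measured genes of mature muscle, 5 were higher and none lower at an unadjusted p under 0.05. The shares of all genes at that p were 2.6% and 6.38%. In 13 of the 30 every PI array lay above both controls, against 4.4% of all genes, and the median difference was 0.29.

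Of the genes of muscle regeneration, Myod1, the factor that commits satellite cells to the muscle lineage, was at 7.14, 6.58, 6.61, 6.13 and 6.89 in PI arrays 1 to 5 and 5.14 and 5.79 in control arrays 1 and 2. It was not called with all arrays (log2 fold change 1.20, SE 0.25, adjusted p = 0.0722) and was called without PI array 4 (1.34, adjusted p = 0.0267), the array with the lowest PI level. Myh3, embryonic myosin of newly formed fibers, was at 7.87, 7.21, 6.61, 7.32 and 7.28 in PI arrays 1 to 5 and 6.10 and 6.07 in control arrays 1 and 2, with no overlap (log2 fold change 1.17, SE 0.25, adjusted p = 0.0722). Casq2, the calsequestrin of cardiac and slow muscle, had means of 8.58 ± 0.16 against 7.71 ± 0.44 (log2 fold change 0.87, SE 0.19, adjusted p = 0.0728). Tnnt2, a troponin of developing muscle, had the opposite sign at -0.84. Over the 16 genes measured, 4 were higher and 1 lower at an unadjusted p under 0.05, against 2.6% and 6.38% of all genes. Their median was 0.22, or 0.37 without control array 1. The mean of the mature muscle list was also higher, at 11.31 to 11.61 in the PI arrays and 11.04 to 11.13 in the control arrays. The 2 lists did not rank the PI arrays alike. PI array 4 had the lowest regeneration mean of the PI arrays (7.755), while its mature muscle mean was 11.50, above that of PI array 3 (11.31). The part of muscle content of the samples in these differences was not tested.

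Further positive differences of similar size were those of Atp1b4, a muscle protein related to the Na,K-ATPase beta subunit, Ucp3, a mitochondrial carrier of muscle, and Cemip, a hyaluronan-degrading protein. Atp1b4 was at 7.0, 6.25, 5.84, 7.85 and 6.28 in PI arrays 1 to 5 and 5.11 and 5.17 in control arrays 1 and 2 and Ucp3 at 9.68, 9.66, 9.37, 10.65 and 10.00 in PI arrays 1 to 5 and 8.64 and 8.62 in control arrays 1 and 2. Cemip was at 7.40, 7.21, 7.58, 8.88 and 8.04 in PI arrays 1 to 5 and 6.45 and 6.54 in control arrays 1 and 2. In all 3 genes PI array 4 had the highest level, every PI array lay above both controls, and the adjusted p was 0.124, 0.0896 and 0.0923. The differences were 1.5, 1.24 and 1.33 with all arrays and 1.20, 1.05 and 1.06 without PI array 4.

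Extracellular matrix genes did not differ as a single group. The elastic fiber and microfibril genes were lower: all 16 measured genes had a negative difference, with a median of -0.37. At an unadjusted p under 0.05, 8 of them were lower, against 6.38% of all genes. Ltbp2, which binds microfibrils and helps their assembly, was at 8.70, 8.97, 8.88, 9.02 and 8.86 in PI arrays 1 to 5 and 9.70 and 9.74 in control arrays 1 and 2. The groups were well apart (log2 fold change -0.83, SE 0.16, adjusted p = 0.0656), and Ltbp2 was called without PI array 4 (-0.87, adjusted p = 0.0392). Fbln5, which organizes elastin on microfibrils, was at 9.18 ± 0.16 against 9.68 ± 0.09 (log2 fold change -0.50, SE 0.12, adjusted p = 0.13). Fbn1, the main microfibril protein, Emilin1 and Ltbp1 differed by -0.37, -0.41 and -0.56, with the PI arrays below both controls in each, and Eln, elastin, by -0.26 with overlap. The list means were 9.87 to 10.11 in the PI arrays and 10.31 to 10.40 in the control arrays, so the groups did not overlap. Loxl1, an enzyme that crosslinks elastin, was at 10.65 ± 0.25 against 11.12 ± 0.06 (log2 fold change -0.47, SE 0.16, adjusted p = 0.315).

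Small leucine-rich proteoglycans, which bind collagen fibrils, and fibrillar collagens tended the other way. Ogn, osteoglycin, was at 10.90, 10.58, 10.67, 11.41 and 10.23 in PI arrays 1 to 5 and 9.42 and 9.55 in control arrays 1 and 2. The lowest PI array was above both controls (log2 fold change 1.27, SE 0.35, adjusted p = 0.199; 1.11 without PI array 4), and the other 3 probe sets of Ogn gave 1.04, 1.21 and 0.62. Omd and Ecm2 differed by 0.73 and 0.40, also without overlap, whereas decorin (Dcn), the most studied of the family, was at 13.86 ± 0.14 against 13.79 ± 0.12. In all, 3 of 11 measured proteoglycans were higher at an unadjusted p under 0.05 and none was lower. At that level 2.6% of all genes were higher. The median of the proteoglycans was 0.40, or 0.14 without control array 1. In this list the 2 controls lay apart for Chad (9.24 and 10.92) and Fmod (8.67 and 9.78).

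Col1a1, a chain of type I collagen, was at 11.34, 11.08, 11.11, 10.87 and 10.81 in PI arrays 1 to 5 and 10.57 and 10.51 in control arrays 1 and 2. Every PI array was above both controls, yet the gene was not called (log2 fold change 0.50, 95% confidence interval 0.13 to 0.87). The partner chain Col1a2 differed by 0.12 (interval -0.15 to 0.38) and Col3a1 by 0.18 (interval 0.00 to 0.37), both with overlap. Col5a2 and Col5a3, of the type V collagen that regulates fibril diameter, differed by 0.46 and 0.48 without overlap, and Col5a1 by -0.12 with overlap. Of the 9 fibrillar collagens, 4 (Col1a1, Col3a1, Col5a2 and Col5a3) were higher at an unadjusted p under 0.05 and none was lower. Over all genes the shares were 2.6% and 6.38%. The median of the 9 was 0.33, or 0.16 without control array 1. The list also holds Col2a1, Col11a1 and Col11a2, collagens of cartilage, and Col11a2 was the gene at the median. Col11a1 had the most positive difference of the list (0.62). It ranged from 3.11 to 5.54 in the PI arrays and was 3.44 and 3.84 in the controls. The 60-day controls lay below the earlier controls for this list, with a median difference of -0.64, and Col1a1, Col1a2 and Col3a1 were among the 9 genes (0.0633%) called between control ages, at -1.02, -0.67 and -0.57, as was Oprpn.

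Matrix proteases and their inhibitors had 6 of 19 genes lower and none higher at an unadjusted p under 0.05. Over all genes the shares were 6.38% and 2.6%. Mmp12, the macrophage elastase, was at 10.66, 11.06, 11.36, 10.52 and 9.95 in PI arrays 1 to 5 and 11.68 and 11.88 in control arrays 1 and 2, and all PI arrays were below both controls (log2 fold change -1.07, SE 0.35, adjusted p = 0.315). Mmp19 differed by -0.61, and the inhibitors Timp2 and Timp3 by -0.43 and -0.45. Spp1, osteopontin, a phosphoprotein of matrix and macrophages, was at 10.39, 10.24, 10.79, 9.87 and 9.21 in PI arrays 1 to 5 and 11.66 and 11.61 in control arrays 1 and 2, again with no overlap (log2 fold change -1.54, SE 0.41, adjusted p = 0.178). None of these genes was called with or without PI array 4.

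Macrophage markers were lower in PI mucosa across the list. All 11 measured markers had a negative difference at an unadjusted p under 0.05, against a background of 6.38% of genes. In 9 of them every PI array lay below both controls, against 7.93% of all genes, and the median was -0.91. Cd5l, a secreted scavenger protein of tissue macrophages, was the one that passed the test. Its levels were 5.18, 4.83, 4.95, 4.48 and 4.77 in PI arrays 1 to 5 and 6.50 and 5.98 in control arrays 1 and 2. It fell without overlap (log2 fold change -1.40, SE 0.23, adjusted p = 0.0199), also without PI array 4 (-1.31, adjusted p = 0.0267), while a second probe set, near the low end of the scale, was at 3.44 in PI and 3.50 in control. Csf1r, the receptor of the macrophage growth factor, was at 10.30, 9.85, 9.82, 9.71 and 9.88 in PI arrays 1 to 5 and 10.90 and 10.65 in control arrays 1 and 2 (log2 fold change -0.86, SE 0.19, adjusted p = 0.0865). Cd68, Cd163 and Folr2 differed by -1.23, -1.04 and -1.17, and the complement genes C1qa, C1qb and C1qc, made by macrophages, by -0.91, -1.13 and -0.88. The list mean was 8.94 to 10.12 in the PI arrays and 10.45 to 10.90 in the control arrays. The lowest of these values belonged to PI array 4, and without it the PI range began at 9.73 and the median difference was -0.75. The median was -0.74 without control array 1 and -1.20 without control array 2. Cd5l itself differed by -1.13 without control array 1 and -1.66 without control array 2.

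Of the chemokines, Ccl9, Ccl7 and Ccl2, which attract monocytes and other leukocytes, had the most negative differences. Ccl9 was at 9.76, 9.49, 10.39, 8.59 and 9.08 in PI arrays 1 to 5 and 11.04 and 10.92 in control arrays 1 and 2. Ccl7 was at 7.58, 8.25, 7.99, 7.63 and 7.58 in PI arrays 1 to 5 and 9.62 and 8.85 in control arrays 1 and 2. Both had all PI arrays below both controls, with an adjusted p of 0.284 and 0.35. Ccl2 differed by -1.17, and C5ar1, the receptor of complement fragment C5a on myeloid cells, by -1.33, also without overlap. The 28 chemokines had a median of -0.29, or -0.03 without control array 1, the control array with the higher leukocyte markers. Without control array 2 the median was -0.60. At an unadjusted p under 0.05, 6 of the 28 were lower and none higher, against 6.38% and 2.6% of all genes. Of 11 complement genes 4 were lower at that level: Cfp, properdin, at -1.0, and Clu, Serping1 and C1r at -0.59, -0.58 and -0.48. The neutrophil list had no gene at an unadjusted p under 0.05 in either direction, and S100a9 ranged from 8.06 to 10.82 in the PI arrays and was 10.43 and 7.80 in the controls. Lymphocyte genes had a median of -0.37, which was 0.25 without control array 1, -0.75 without control array 2 and -0.12 without PI array 4.

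**Figure D4:**
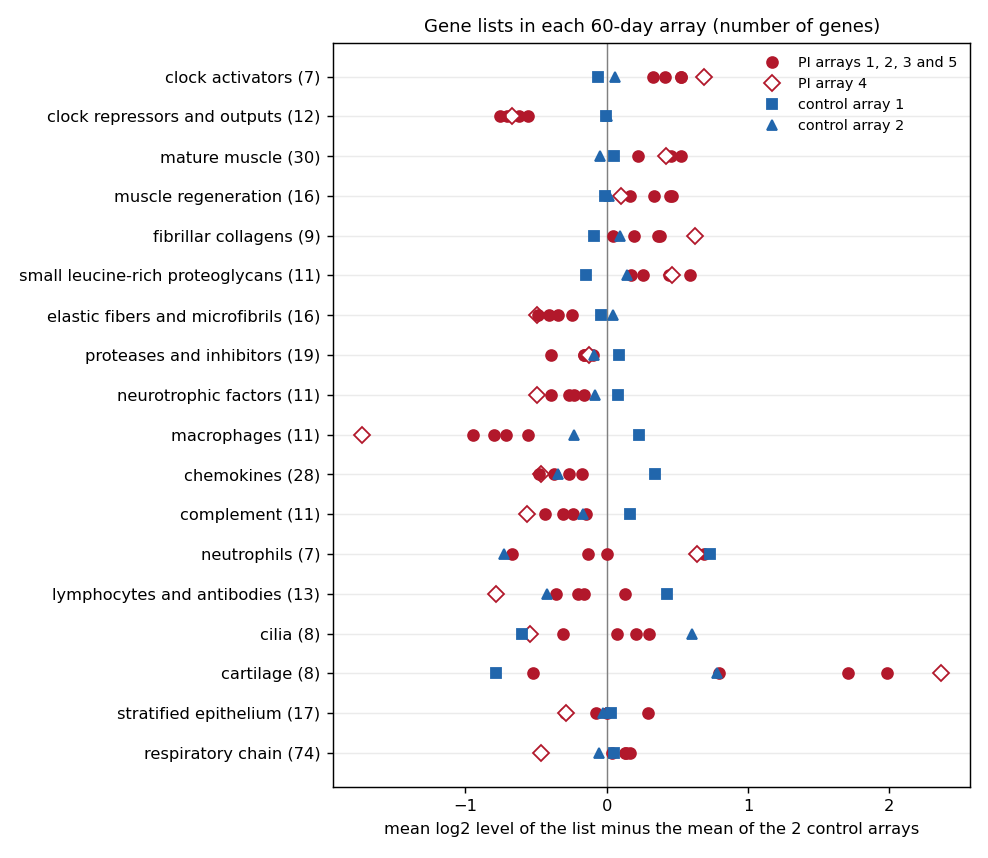
Mean log2 level of each gene list in each 60-day array, minus the mean of the 2 control arrays (horizontal axis); the number of measured genes is in brackets. The PI arrays lie apart from both controls for the clock, mature muscle, muscle regeneration, proteoglycan, elastic fiber, protease, neurotrophic factor and macrophage lists. The gap is narrow for the proteoglycan and protease lists. For the neutrophil, cilia and cartilage lists the 2 controls lie far apart.

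At an unadjusted p under 0.05, 6.38% of all genes were lower and 2.6% higher. Neurotrophic factors and their receptors had 5 of 11 genes lower and none higher at that level. Their median of -0.33 was -0.22 without PI array 4 and -0.14 without control array 1. Nrtn, neurturin, a survival factor of parasympathetic and other neurons, was at 7.17, 7.66, 7.29, 6.67 and 7.43 in PI arrays 1 to 5 and 8.44 and 8.01 in control arrays 1 and 2. All PI arrays were below both controls, and it was not called (log2 fold change -0.98, SE 0.20, adjusted p = 0.0722). Its receptor subunits Gfra2 and Ret differed by -0.38 and -0.22, and Bdnf by -0.61. Nalcn, a sodium leak channel of neurons, and Sphkap, an anchoring protein of protein kinase A, were also lower in every PI array. Nalcn was at 5.96, 5.77, 5.68, 5.74 and 5.55 in PI arrays 1 to 5 and 7.07 and 6.67 in control arrays 1 and 2 (log2 fold change -1.13, SE 0.23, adjusted p = 0.0715). Sphkap was at 6.55 ± 0.23 against 7.52 ± 0.22 (log2 fold change -0.96, SE 0.20, adjusted p = 0.0722). A second, dimmer probe set of Sphkap was at 4.28 in PI and 4.36 in control.

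Leaving out PI array 4 added 13 genes to the called ones, of which 3 were higher and 10 lower. S1pr3, a receptor of sphingosine 1-phosphate, was at 8.14, 8.82, 8.53, 9.66 and 8.36 in PI arrays 1 to 5 and 9.67 and 9.39 in control arrays 1 and 2. PI array 4 was the only PI array at control level, and the difference went from -0.83 to -1.07, adjusted p = 0.0103. Gda, guanine deaminase, was at 12.64, 12.62, 12.65, 13.55 and 12.63 in PI arrays 1 to 5 and 12.98 and 13.10 in control arrays 1 and 2, so that PI array 4 was above both controls and the other PI arrays below them, and the difference went from -0.22 to -0.40, adjusted p = 0.0407. Slc6a15, a neutral amino acid transporter, was at 5.38 in PI array 4, between the controls, and went from -0.69 to -0.85, adjusted p = 0.0267. Dpt, dermatopontin, a collagen-binding matrix protein, was at 12.34, 12.08, 12.12, 11.42 and 11.93 in PI arrays 1 to 5 and 11.53 and 11.59 in control arrays 1 and 2, so that PI array 4 alone was below both controls, and went from 0.42 to 0.56, adjusted p = 0.0392. In Myod1 and Tmem252, a membrane protein, PI array 4 was the lowest of the PI arrays but still above both controls. Ltbp2 is described above, and Col15a1, a basement membrane collagen, C1qtnf1, a C1q-related secreted protein, Lrrn3, Fam167a, Rasa3, a Ras inhibitor, and Zfand2a, a heat shock-inducible protein, had all PI arrays below both controls. In these 6 genes the difference without the array was between -0.91 and -0.46 and the adjusted p between 0.0267 and 0.0439. With all arrays, a second probe set gave -0.11 for C1qtnf1, -0.13 for Rasa3 and -0.71 for Col15a1.

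Marker lists of other tissues also varied in level between the samples. The cartilage list had all 8 differences positive and a median of 1.12, but the list mean ran from 6.75 to 9.64 in the PI arrays and was 6.49 and 8.05 in the controls. The median was 0.81 without PI array 4, 0.24 without control array 1 and 2.03 without control array 2. Col10a1, a collagen of hypertrophic cartilage, was at 10.21, 5.52, 10.29, 12.31 and 11.31 in PI arrays 1 to 5 and 5.83 and 7.06 in control arrays 1 and 2 and was not called (log2 fold change 3.48, SE 1.31, adjusted p = 0.409). The median of the cilia list was -0.07, and it was -0.67 without control array 1 and 0.63 without control array 2. With all arrays, medians of the epithelial, gland, fat, endothelial, red blood cell, Schwann cell and thyroid lists lay between -0.18 and 0.17.

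Other lists held few genes at an unadjusted p under 0.05, a level at which 2.6% of all genes were higher and 6.38% lower. Collagen processing enzymes had 2 of 14 higher and 3 lower (median -0.21, or -0.13 without control array 2), and hyaluronan genes 1 of 10 in each direction (median -0.15). Provisional matrix had 3 of 12 lower and none higher, and 3 in each direction without PI array 4. Its median was 0.16, or 0.03 without control array 1. Basement membrane had 1 of 18 higher, and myofibroblast genes 1 of 12 lower. Immediate early genes, which respond within minutes to stimuli and handling, had 2 of 16 lower (median -0.16, or -0.27 without control array 1). Cell division genes had 2 of 18 higher (median 0.23). Antigen presentation had 1 of 8 lower, and its median of -0.31 was -0.05 without control array 1, -0.64 without control array 2 and -0.18 without PI array 4. Mast cell and interferon response genes had none in either direction. The 74 respiratory chain genes had none either, and their median went from -0.03 to 0.11 without PI array 4.

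More genes were called at the earlier time points. At 3 days PI 3771 genes (26.5%) were called and at 14 days PI 436 (3.07%), each against its own controls. Of the 7 genes called at 60 days, all had the same sign at 14 days and 6 were called there in that direction, Oprpn being the exception. At 3 days 4 were called in the same direction, Pgf, Cd5l, Per2 and Bnc2, while Npas2 fell (-1.07, adjusted p = 6.5e-05). Pgf was lower by like amounts throughout, at -0.71, -1.03 and -1.04 at 3, 14 and 60 days, and Bnc2 differed by 1.43, 0.82 and 0.69. The study had selected 18 genes on these same arrays for a lasting difference, so their direction is no independent evidence; of the 16 measured here 6 were higher and 10 lower at 60 days, all at an unadjusted p under 0.05 and without overlap.

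The injury effect itself differed between 60 and 14 days in 11 genes (0.0774%) and between 60 and 3 days in 1906 (13.4%). In all 11 the 60-day effect was the lower one, and they include several matrix genes, named here after their values were seen. Postn, periostin, was higher by 1.27 at 14 days and differed by -0.08 at 60 days. For Col5a1 the values were 1.07 and -0.12, for Col6a2, a type VI collagen chain, 0.62 and -0.34, and for Ltbp2 0.30 and -0.83. Myh3 differed by 3.84 and 1.17. The others were C1qtnf1, C1qtnf6, Cercam, Dlk1, Pxdn and Srpx2.

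**Figure D5:**
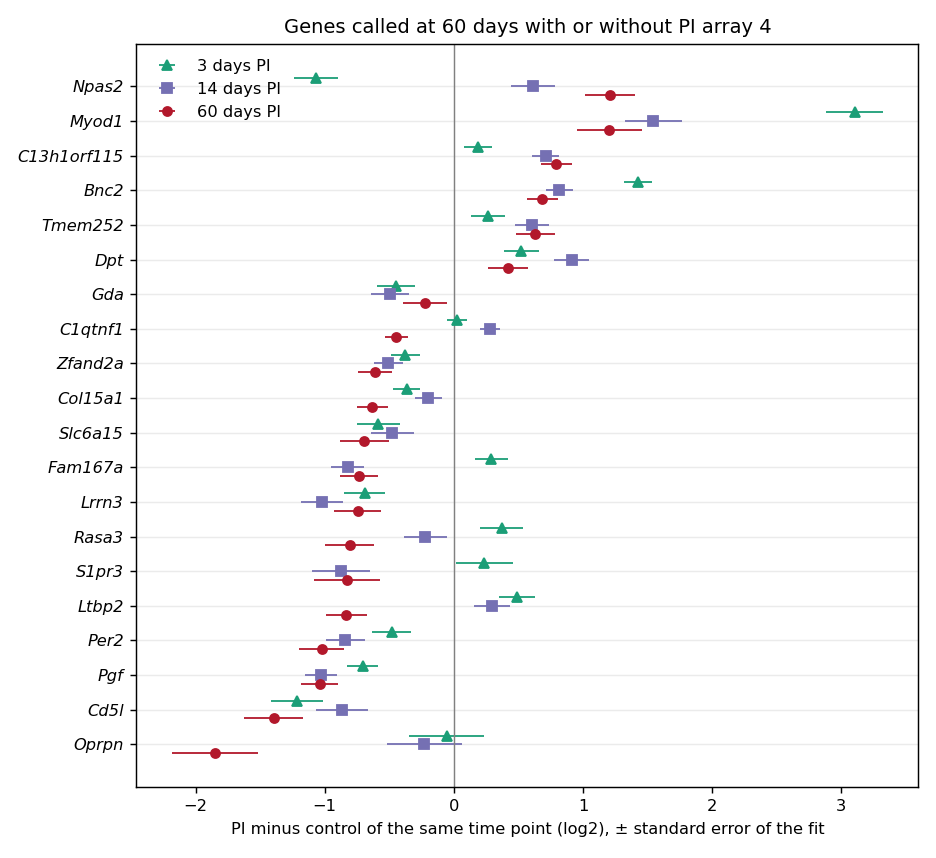
Difference between PI and control mucosa of the same time (horizontal axis, log2; bars, standard error of the fit) at 3, 14 and 60 days, for the 20 genes called at 60 days with or without PI array 4. Pgf lies between -1.04 and -0.71 at all 3 times, while Npas2 goes from -1.07 at 3 days to 1.21 at 60 days.

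Cultured fibroblasts of scarred and naive VF, 4 and 3 arrays with their own fit, gave 779 called genes (5.48%). Of the 7 genes of the tissue comparison, Per2 was the one called there, and with the opposite sign: it was 0.85 log2 higher in scar fibroblasts (adjusted p = 0.0082). Npas2 differed by 0.88 (adjusted p = 0.0825), Bnc2 by -0.07 and Pgf by -0.37, and Ltbp2 by 0.21.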

How the data were processed

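Total RNA of microdissected mucosa, pooled from 4 rats per array, had been amplified once, biotin-labelled and hybridized to Affymetrix rat genome arrays. The authors deposited log2 values after RMA (background correction, quantile normalization over all 36 arrays and summary per probe set), so array-wide shifts are removed and changes of very dim and very bright probe sets are compressed. Of 31099 probe sets, 57 controls were left out. Of the other 31042, 20826 had 1 gene symbol in the platform annotation, 436 several and 9780 none. Each of 14217 genes was represented by the probe set of median mean level. Groups followed the labels. The 23 mucosa arrays were fitted together as 6 groups with limma 3.58.1 in R 4.3.3 (lmFit, eBayes, Benjamini-Hochberg), and the 13 fibroblast arrays separately. The scripts were tested on simulated data. The methods' lognormal-normal model, rewritten here, was an alternative, as were other arrays, normalizations, filters and probe set rules. The arrays compared, the members of the 38 gene lists and the rule for named genes were chosen with earlier results of these data known. Named were all called genes with and without PI array 4, the 10 most positive and 10 most negative differences without overlap at an unadjusted p under 0.01, genes the study names, and 2 per list; other list members are given to describe their list. Replicates are separate pools of rats, and their number limits the precision. Promoter sequences are from RefSeq (GRCr8), found for 22 of 24 genes looked up. Plots used matplotlib 3.10.9 (Python 3.11.15).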

Additional observations from a re-analysis of the deposited data

Results flagged for a closer look

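In 10 of the 103 named genes 1 PI array lay far from the other 4. For genes taken at random, chance gives this in about 1 of 20 groups, but the named genes were selected on these arrays. Gda, Slc6a15 and Zfand2a were named because they were called without PI array 4, so that rate cannot be set against them. PI array 4 was the highest for Gda (13.55), Slc6a15 (5.38) and Zfand2a (8.23) and the lowest for Krt19 (12.01), RT1-DMa (8.09) and Rpl6 (13.59). PI array 1 was the highest for Csf1r (10.30) and the lowest for Fosb (5.64) and Ntrk2 (7.29), and PI array 3 the highest for Krt14 (13.57). All values are log2 levels.

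The injury effect at 60 days differed from that at 14 days in 3 of the 103 named genes and in 0.0774% of all genes. The test was of the difference itself in limma. The 60-day minus 14-day log2 differences were -0.72 for C1qtnf1, -1.13 for Ltbp2 and -2.66 for Myh3.

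Against 3 days, the effect of 38 of the 103 named genes differed by the same test, which called 13.4% of all genes. Many were named for their 60-day difference, which is part of this test, so their share is no independent evidence. The values that follow are 60-day minus 3-day log2 differences. Among muscle genes they were Myh3 -5.04, Tnni1 -3.39, Myod1 -1.9, Casq2 -1.88, Neb 1.42 and Myh2 2.99. Among matrix and secreted matrix genes they were Col5a3 -2.81, Plod2 -2.55, Nid2 -2.08, Spp1 -2.01, Mmp19 -1.83, Tgfbi -1.43, Cemip -1.34, Col5a2 -1.32, Ltbp2 -1.32, Lama4 -1.27, Loxl1 -0.83 and Omd 1.63. Among cell division genes they were Bub1 -1.73 and Top2a -1.35. Among clock genes they were Tef -0.90, Bmal1 1.32 and Npas2 2.27. Among genes of vessels, muscle walls, immune cells and epithelium they were Gbp2 -1.11, S1pr3 -1.06, Myl9 -0.92, Cd8b -0.72, Krt14 -0.68, Eng -0.68 and Vegfa 1.22. Among the remaining genes they were Oprpn -1.80, Rasa3 -1.18, Fam167a -1.02, Bnc2 -0.74, C1qtnf1 -0.47, C13h1orf115 0.61, Sdha 0.87 and Ucp3 1.17.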

How the results depend on the processing

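The count of 7 genes called at 60 days depended on which arrays entered the fit. It was 0 with the 60-day arrays alone and 0 when PI array 4 was also left out. In these settings 687 and 1444 of 14217 genes had an unadjusted p under 0.05. The first is near the number that this threshold passes when no gene differs. Without the 3 arrays that deviated together (PI array 4, 3-day PI array 5 and 14-day control array 3) the count was 22. With array weights it was 55, and with pooled controls, which include younger rats, it was 1001. In the lognormal-normal model it was 20 (3 higher, 17 lower, 2 of the 7 among them). For probe sets, 12 as reported, the counts under the first 5 of these settings were 1, 3, 35, 80 and 1336. With array weights 65 genes differed between the effects of 60 and 14 days, 4788 between 60 and 3 days and 330 between control ages, and without the 3 arrays 3515 differed between 60 and 3 days. Leaving out 1 array at a time gave 0 (without control array 1) to 59 (without 3-day control array 1) called genes, 0 to 32 probe sets, 3 to 41 genes for 60 against 14 days, 1086 to 2565 for 60 against 3 days, 4 to 35 between control ages and 188 to 1300 in fibroblasts. The leaving out of arrays of 3 and 14 days was chosen after seeing the data: without 3-day control array 2 the count was 31, without 3-day PI array 5 it was 11 and without 14-day PI array 4 it was 10. The cause of these shifts was not tested. Other normalizations, filters, probe set rules and priors gave 5 to 9 genes. Pgf, Npas2, C13h1orf115 and Bnc2 were called in each of them. Per2 was not called with array medians set equal, quantile normalization repeated or the mean of probe sets (adjusted p = 0.065, 0.071 and 0.058 in limma). Oprpn was not called with array medians set equal (0.062), nor Cd5l with the mean of probe sets (0.058). The filter on mean level removed Cd5l and Oprpn.

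With the replicate number as a block, 0 genes and 2 probe sets were called at 60 days (1080 genes at an unadjusted p under 0.05) and 0 in fibroblasts, against 779 without it. The labels do not say that a number marks a shared litter or day. Deviations from the group means of same-numbered arrays correlated at -0.09 and -0.08 at 60 days, at 0.31, 0.19 and -0.03 at 3 days, at -0.13, -0.01 and 0.09 at 14 days and at 0.097, 0.12 and 0.14 between scar and naive fibroblasts, so pairing was not taken as given. Per2 in scar fibroblasts was at 0.95 with the block (adjusted p = 0.0651). Tppp3 was at 0.065 with the block.

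Of 3586 values of single genes recomputed, 3350 kept direction and side of the threshold, 153 passed it newly, 70 no longer passed and 13 changed sign, in 7 genes that were not called. Camp was at 0.013 without PI array 4, with the 60-day arrays alone less PI array 4 and without the 3 arrays, at 0.016 with array weights and at 0.11 with pooled controls, and ran from -0.103 to 0.013 with single arrays left out. Pooled controls turned Ccdc40 (0.11), Col5a2 (-0.022), Col5a3 (-0.015) and Krt19 (0.089). With 1 array left out, Ccdc40 ran from -0.54 to 0.20, S100a9 from -0.87 to 1.76 and Tppp3 from -0.333 to 0.0896. Of 456 list medians, 36 moved by more than the spread between arrays.

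With 2 control arrays, each control decides much of a difference, and no call held without control array 1. The 7 calls also borrow the spread of the other time points. The 5 and 2 arrays of the labels differ from the numbers in the methods. Levels of muscle, cartilage and leukocyte markers varied between samples, and the part of tissue content in the differences was not tested.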
